A study of Mus musculus with 7 samples.

Results

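The SLC25 family, the solute carriers of the inner mitochondrial membrane, was followed in the oocyte transcriptome of mice that lack Mitofusin 1 (MFN1), a GTPase that fuses mitochondrial outer membranes. The members were taken by name, as every gene whose symbol is Slc25a followed by a number, which gave 42 genes of the 22877 in the table. The values compare Mfn1-/- females, which carry floxed Mfn1 and a Cre driven by the Zp3 promoter that acts in growing oocytes, with WT littermates, all 8 weeks old and labelled as strain C57BL/6J. Each library was made from 5 pooled secondary follicle-enclosed oocytes by Smart-Seq2, in which poly(A) RNA is copied and amplified as cDNA, and the labels list 4 WT and 3 Mfn1-/- libraries, although the study's design text gives 3 per genotype. Granulosa cells of these mice keep Mfn1. The deposited values are 1 mean of normalized counts per genotype and gene, so the spread between libraries, the depth of each library and a test of any difference cannot be given, and every fold below is a description of those means.

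Carriers of this family are small proteins built from 3 repeats of a pair of membrane helices, and each repeat holds a signature in which a proline is followed by an acidic and then a basic residue. They move nucleotides, phosphate, carboxylates, amino acids, cofactors and metals between the cytosol and the matrix. The growing oocyte depends on its mitochondria for ATP, and the adenine nucleotide translocases of this family bring that ATP out of the matrix.

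The signature could be read in the coding sequence of the members as in-frame codons for proline, then any residue, an acidic residue, any 2 residues and a basic residue. At least 2 such stretches were found in 35 of the 42 members (83.3%), against 8.65% of 15477 other coding genes of the table, and 3 or more in 27 members. Slc25a51, Slc25a46 and Slc25a53 held 0. The stretches of Slc25a39 and Slc25a45, which are described further below for their genotype difference, are shown to make the repeat visible. The capitals mark the proline, acidic and basic codons (GRCm38, 5′ to 3′ on the coding strand, the minus strand for Slc25a39 and the plus strand for Slc25a45).
Slc25a39, stretch 1, chr11:102406399-102406416: CCCctgGATgtggtgAAG
Slc25a39, stretch 2, chr11:102404585-102404602: CCCttgGAGctcgtgCGG
Slc25a39, stretch 3, chr11:102403834-102403851: CCCttcGATgtggtgAAG
Slc25a45, stretch 1, chr19:5879875-5879892: CCAttcGACactgtaAAG
Slc25a45, stretch 2, chr19:5884360-5884377: CCTtttGACctcatcAAA
Slc25a45, stretch 3, chr19:5884785-5884802: CCTtttGATgtgatcAAG
Different codons fill the same places, so the stretches of a gene are alike in the kind of residue they encode and not in every letter.

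The label of the cells was checked first. All 12 oocyte markers of the list were in the table, with genotype means from 0.679 to 812 normalized counts in Mfn1-/- and from 0.922 to 816 in WT oocytes, and Zp3, Gdf9 and Dppa3 were among the highest. Of 12 granulosa cell markers 11 were in the table, and their means ranged from 0.0127 to 1.87 in Mfn1-/- and from 0.0116 to 0.954 in WT oocytes, with Inha the highest in both. Fshr lay at 0.0160 and 0.0171. Theca and stroma markers reached at most 0.0845 and 0.105. Of 8 blood cell markers 2 were in the table, Hba-a2 with 0.0285 and 0.0793, and Cd68, a lysosomal glycoprotein of macrophages, with 7.58 in Mfn1-/- and 0.672 in WT oocytes. The part of these markers in the differences below was not tested. The targeted gene, Mfn1, lay at 0.0577 in Mfn1-/- against 0.616 in WT oocytes. The summed means of the whole table were 1.10 times as high in Mfn1-/- as in WT oocytes, and the median log2 fold change of the 6226 genes that averaged 1 or more over the libraries was 0.16. Changes are therefore also given relative to that shift where it turns a direction.

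Levels of the carriers spanned a wide range in both genotypes. Slc25a5, which encodes the adenine nucleotide translocase ANT2, had 84.3 normalized counts in WT and 115 in Mfn1-/- oocytes and made up 52.8% and 50.7% of the summed means of the family. Whether the authors' normalization divides by gene length is not stated, so levels of different genes were ordered both as deposited and per kilobase of transcript. Slc25a5 was first in both orders and both genotypes. The citrate carrier Slc25a1, the translocase Slc25a4 (ANT1) and the phosphate carrier Slc25a3 were the other members within the first 5 places in every one of these orders. Without replicate values it cannot be said which neighbours in the order differ beyond their spread. Of the 42 members, 15 had a mean of at least 1, 16 a mean between 0.1 and 1 and 11 a mean under 0.1. Slc25a24, Slc25a42 and Slc25a21 lay within 0.005 of 0.01, the lowest value of the table, in both genotypes. The names Slc25a2, Slc25a34, Slc25a41, Slc25a43 and Slc25a54 exist in GENCODE M21 and have no row here.

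**Figure D1:**
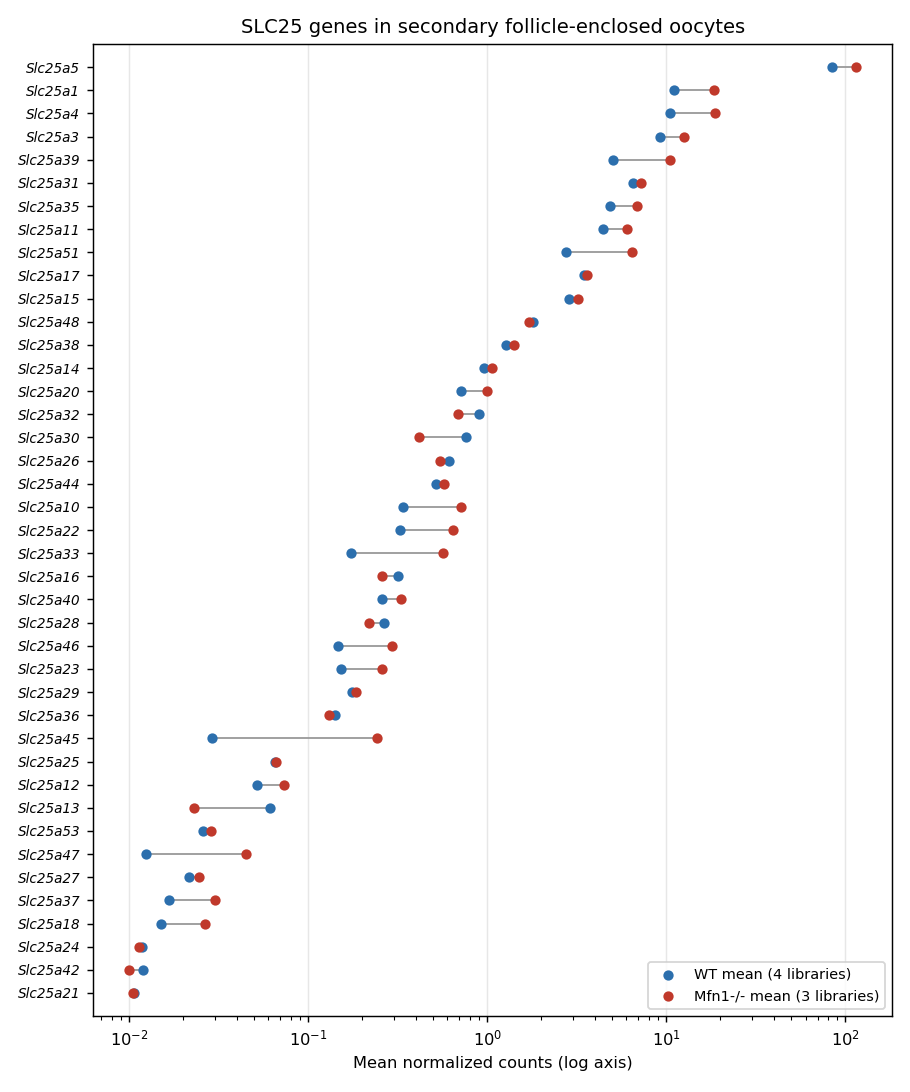
Mean normalized counts (log axis) of 41 of the 42 SLC25 genes in WT (blue) and Mfn1-/- (red) oocytes, ordered by the mean over the 7 libraries; each point is the authors' mean of a genotype, with no error available. Slc25a5 stands apart at the top with 84.3 and 115, and the longest lines belong to Slc25a45, Slc25a47 and Slc25a33.

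The question put to the family was how its transcripts differ between oocytes with and without MFN1. More members had a higher than a lower mean in Mfn1-/- oocytes, 31 against 11 (73.8% higher, against 56.7% of all genes). Their summed means were 227 against 159.7, or 1.42 times as high, and 1.48 times as high without Slc25a5. Each library held 5 oocytes in both genotypes. In such pools a difference within the oocytes and one from other cells carried along cannot be told apart. The log2 fold change was taken from the genotype means after adding 0.1 to each, which understates the difference of genes with low means. Its median over the members was 0.15, against 0.037 over all genes. Past a fold of 2, 4 members were higher (9.52%), while 4.87% of all genes were, and 0 members were lower, while 2.75% of all genes were. The direction of the family as a whole depended on the shift of the table: after subtraction of 0.16 from each log2 fold change, 19 members lay above and 23 below 0.

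The higher means were most common among the abundant members. Of the 15 members with a mean of at least 1, 14 were higher in Mfn1-/- oocytes (93.3%, against 65.4% of all genes at that level), and their median log2 fold change was 0.44, against 0.16. Relative to the shift, their median was 0.28, with 9 above and 6 below 0. Slc25a51 and Slc25a39 were past a fold of 2 among these, while the shares of all genes at that level were 5.44% higher and 3.24% lower. Of the 16 members with means between 0.1 and 1, Slc25a33 and Slc25a45 were past a fold of 2 and higher and 0 were lower, where 8.73% and 5.05% of all genes were higher and lower. Of the 11 members with lower means, 0 were past a fold of 2 in either direction, where the shares of all genes were 1.23% and 0.464%.

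**Figure D2:**
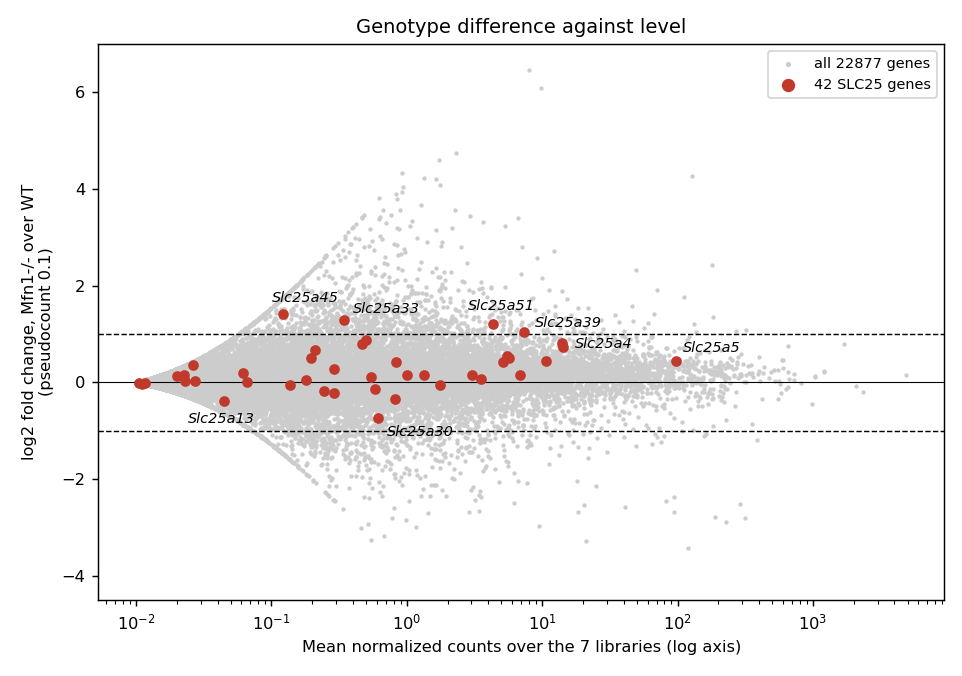
Log2 fold change of Mfn1-/- over WT (pseudocount 0.1) against the mean over the 7 libraries (log axis) for all 22877 genes (grey) and the 42 SLC25 genes (red); dashed lines mark a fold of 2. Slc25a45, Slc25a33, Slc25a51 and Slc25a39 lie above the upper line and 0 members below the lower one, and the funnel at the left is made by the pseudocount and the lowest value of the table.

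The promoters of the members were read from RefSeq (GRCm38.p6), where 33 of the 42 genes had 43 windows of 300 bases, from 250 before to 50 after the start. Of the 4 genes past a fold of 2, Slc25a33, Slc25a39 and Slc25a45 had a window, and these are shown so that the starts of the members with the highest folds can be compared. The capitals mark matches, on either strand, to the motifs spelled out after the sequences.
Slc25a33, chr4:149774218-149774517, minus strand: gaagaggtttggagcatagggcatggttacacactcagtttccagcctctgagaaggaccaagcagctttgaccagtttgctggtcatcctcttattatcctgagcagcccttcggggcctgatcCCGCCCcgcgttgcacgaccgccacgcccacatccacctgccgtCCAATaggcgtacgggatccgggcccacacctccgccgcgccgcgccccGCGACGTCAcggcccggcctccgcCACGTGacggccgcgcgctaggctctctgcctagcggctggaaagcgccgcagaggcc
Slc25a39, chr11:102407468-102407767, minus strand: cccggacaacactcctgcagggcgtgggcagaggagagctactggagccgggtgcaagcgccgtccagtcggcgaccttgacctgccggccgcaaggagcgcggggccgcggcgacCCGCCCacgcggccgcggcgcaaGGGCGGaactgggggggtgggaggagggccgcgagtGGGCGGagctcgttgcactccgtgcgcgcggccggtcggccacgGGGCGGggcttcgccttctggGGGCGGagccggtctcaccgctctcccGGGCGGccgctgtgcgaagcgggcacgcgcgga
Slc25a45, chr19:5877572-5877871, plus strand: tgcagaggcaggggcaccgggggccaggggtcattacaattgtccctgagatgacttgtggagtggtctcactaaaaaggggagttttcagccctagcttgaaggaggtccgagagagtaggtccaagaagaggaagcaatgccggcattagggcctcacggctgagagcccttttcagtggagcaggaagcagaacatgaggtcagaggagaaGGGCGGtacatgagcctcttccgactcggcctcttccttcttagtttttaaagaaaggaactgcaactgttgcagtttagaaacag
The 3 windows are unlike one another. That of Slc25a39 held 6 GC boxes, 45 CpG pairs and a GC content of 77.3%, that of Slc25a33 held 1 each of the GC box, CCAAT box, E-box and antioxidant response element core with 30 CpG pairs, and that of Slc25a45 held 1 GC box, 7 CpG pairs and a GC content of 52.7%. The GC box, GGGCGG, was in 36 of the 43 member windows (83.7%), against 35.7% of all promoters of that length. The antioxidant response element core, TGACNNNGC, was in 12 (27.9%), against 12.4%. The E-box, CACGTG, which reads the same on both strands, was in 8 (18.6%), against 7.15%. The CCAAT box, named by its letters, was in 21 (48.8%), against 37.4%, and the TATA box, with the letters TATAAA, was in 2 (4.65%), against 13.6%. The core of the site of NRF1, a nuclear respiratory factor, with the letters GCGCATGC, was in 1 (2.33%), against 2.71%. The amino acid response element core, TGATGNAA, was in 0, against 3.97%. The median member window held 16 CpG pairs, and the median of all promoters 7. The median GC content was 59.7% in the member windows and 52.7% in all promoters, and its part in these shares was not tested. These shares count windows and not genes, with 43 windows of 33 member genes and 32851 windows of 27025 genes over all promoters. Windows of a gene can overlap, so the same site can be counted more than once. This holds for the antioxidant response element core of Slc25a14 and of Slc25a23 and for the E-box of Slc25a14. A match says only that these letters are there.

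Of the 10 carriers of cofactors, nucleotide precursors, metals and glutathione, 3 were past a fold of 2 and higher. Over all genes 4.87% were past it and higher. The share was 5.44% of genes with a mean of at least 1 and 8.73% of those between 0.1 and 1. All of the 10 carriers but Slc25a37 had a mean of at least 0.1. The group held 3 of the 4 members past a fold of 2. Of these 10 carriers 6 were higher (60.0%, against 56.7% of all genes), and 5 lay above 0 relative to the shift. Slc25a51, which imports NAD+ into the matrix, had 6.46 normalized counts in Mfn1-/- against 2.74 in WT oocytes, a log2 fold change of 1.21. It stayed past a fold of 2 relative to the shift (1.05) and reached 1.00, just under it, with a pseudocount of 1. Its exons hold stretches of 75 to 161 bases at 95% identity or more with 155 other genes. Reads from such stretches could have been counted for another gene, and reads of those genes for Slc25a51. The 84 of these genes that have values summed to 228 in Mfn1-/- and 158 in WT oocytes. Their part in the fold of Slc25a51 was not tested. Slc25a39, which imports glutathione, had 10.5 and 5.04, a log2 fold change of 1.04, and 0 near-identical stretches elsewhere. Its promoter is the GC-rich window printed above, with 6 GC boxes. Relative to the shift Slc25a39 was at 0.89, under a fold of 2. The median of genes with a similar GC content of their transcripts, not of their promoters, was also subtracted. Slc25a39 was then at 0.65, again under a fold of 2. Slc25a33, a carrier of pyrimidine nucleotides, had 0.567 and 0.173, a log2 fold change of 1.29 that was 0.42, under a fold of 2, with a pseudocount of 1 and 1.71 with none. An antisense gene, Gm13068, shares 14.9% of its exon bases.

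The other cofactor carriers had smaller differences. The folate carrier Slc25a32 (0.688 in Mfn1-/- and 0.905 in WT oocytes), the S-adenosylmethionine carrier Slc25a26 (0.546 and 0.611), the mitoferrin Slc25a28 (0.220 and 0.264) and the pyrimidine nucleotide carrier Slc25a36 (0.131 and 0.141) had the lower mean in Mfn1-/- oocytes. Slc25a37, the mitoferrin of red cell precursors, lay near the bottom of the table with 0.0302 and 0.0166. Slc25a40, the relative of the glutathione carrier, had 0.332 and 0.257.

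Among the nucleotide, phosphate and coenzyme A carriers, 7 of 10 were higher (70.0%, against 56.7% of all genes) and 0 were past a fold of 2, with a median log2 fold change of 0.11. After subtraction of the shift 4 lay above 0, Slc25a4, Slc25a5, Slc25a3 and Slc25a23. The 3 adenine nucleotide translocases, which exchange matrix ATP for cytosolic ADP, all had the higher mean in Mfn1-/- oocytes. Slc25a4 had 18.7 and 10.5 (0.83), Slc25a5 115 and 84.3 (0.45), and Slc25a31, the translocase ANT4 of germ cells, 7.26 and 6.51 (0.16). Relative to the shift Slc25a31 was at -0.0042, while Slc25a4 and Slc25a5 stayed above 0. Of the 3 together, Slc25a4 made up 13.3% in Mfn1-/- and 10.4% in WT oocytes. Slc25a5 shares near-identical stretches with 3 processed pseudogenes of the table, Gm5560, Gm5529 and Gm5256, whose means sum to 43.1 and 28.2. With them added, the sums were 158 and 112, a log2 ratio of 0.49. The pseudogene Slc25a5-ps itself is not a member by the rule and lay at 0.0305 and 0.0263.

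The phosphate carrier Slc25a3, which supplies phosphate for ATP synthesis, had 12.5 in Mfn1-/- and 9.19 in WT oocytes (0.44). The peroxisomal carrier Slc25a17 had 3.63 and 3.46 (0.067), and -0.092 relative to the shift. The calcium-regulated ATP-magnesium/phosphate carriers were low, with 0.257 and 0.152 for Slc25a23 and under 0.1 for Slc25a24 and Slc25a25 in both genotypes. Slc25a16, linked to coenzyme A, had 0.259 and 0.317, and the coenzyme A carrier Slc25a42 lay at 0.01 and 0.0119.

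The carboxylate and uncoupling-like carriers were higher in 6 of 8 cases (75.0%, against 56.7% of all genes), and 0 were past a fold of 2. Their median log2 fold change was 0.29, and 4 lay above 0 relative to the shift, while Slc25a14 and Slc25a27 turned below it. The citrate carrier Slc25a1, which exports citrate for lipid synthesis, had 18.4 in Mfn1-/- and 11.1 in WT oocytes (0.72). The dicarboxylate carrier Slc25a10 had 0.712 and 0.339 (0.89), and the oxoglutarate carrier Slc25a11, a part of the malate-aspartate shuttle, 6.05 and 4.46 (0.43). Slc25a35 had 6.91 and 4.84 (0.50), with 31.3% of its exon bases shared with Rangrf on the opposite strand. It also shares near-identical stretches with 6 processed pseudogenes, and the 3 of them that have values summed to 8.63 and 6.73. Slc25a14, an uncoupling-like carrier, had 1.07 and 0.955 (0.15, and -0.0099 relative to the shift). Its relative Slc25a30 had 0.418 and 0.759, and its log2 fold change of -0.73 was the lowest of the 42 members. Slc25a27, another uncoupling-like carrier known from brain, had 0.0246 and 0.0215, and the oxodicarboxylate carrier Slc25a21 0.0105 and 0.0106.

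**Figure D3:**
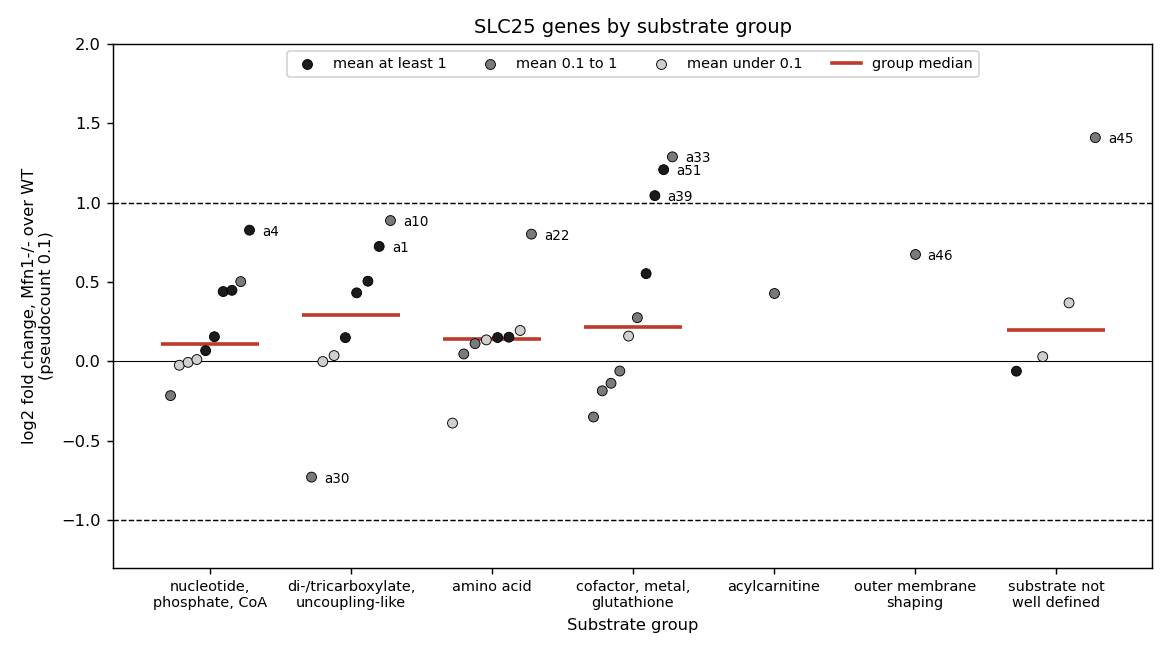
Log2 fold change of Mfn1-/- over WT (pseudocount 0.1) for each SLC25 gene in the table, by substrate group; each point is 1 gene, shaded by its mean over the libraries, red lines are group medians and dashed lines a fold of 2. The cofactor group holds Slc25a33, Slc25a51 and Slc25a39 above the upper line beside 4 genes below 0.

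Of the amino acid carriers 7 of 8 were higher (87.5%, against 56.7% of all genes) and 0 were past a fold of 2. Their median log2 fold change of 0.14 was under the shift of 0.16, and only Slc25a22 and Slc25a12 of the 8 lay above 0 relative to it. The ornithine carrier Slc25a15 had 3.20 and 2.87 (0.15) and the glycine carrier Slc25a38, needed for heme synthesis, 1.42 and 1.27 (0.15). Both were just below 0 relative to the shift, at -0.0072 and -0.0093. The glutamate carrier Slc25a22 had 0.646 in Mfn1-/- and 0.328 in WT oocytes (0.80), and its relative Slc25a18 lay at 0.0264 and 0.0151. Slc25a44, which carries branched-chain amino acids, had 0.571 and 0.521, and Slc25a29, for basic amino acids, 0.184 and 0.175. The aspartate/glutamate carriers had low means. Slc25a12 (aralar) had 0.0737 and 0.0518 and Slc25a13 (citrin) 0.0230 and 0.0611.

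The carnitine/acylcarnitine carrier Slc25a20, which admits fatty acids for oxidation, had 1.00 in Mfn1-/- and 0.717 in WT oocytes (0.43). Slc25a46 sits in the outer membrane and takes part in shaping mitochondria together with the fusion machinery, and it had 0.294 and 0.147 (0.67 with a pseudocount of 0.1 and 1.00 with none). Of the members grouped here as without a well-defined substrate, 3 of 4 were higher (75.0%, against 56.7% of all genes). Relative to the shift 2 lay above 0, Slc25a45 and Slc25a47. Past a fold of 2 and higher was 1, Slc25a45, where 4.87% of all genes were. Slc25a45 had 0.243 in Mfn1-/- and 0.0291 in WT oocytes. Its log2 fold change ran from 0.27 with a pseudocount of 1 over 1.41 with 0.1 to 3.06 with none. Slc25a48 had 1.72 and 1.80, the 1 member of the 15 abundant ones with a lower mean in Mfn1-/- oocytes. Slc25a47, a carrier known from liver, had 0.0451 and 0.0124, and its log2 fold change ran from 0.046 to 1.86 over the same settings.

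**Figure D4:**
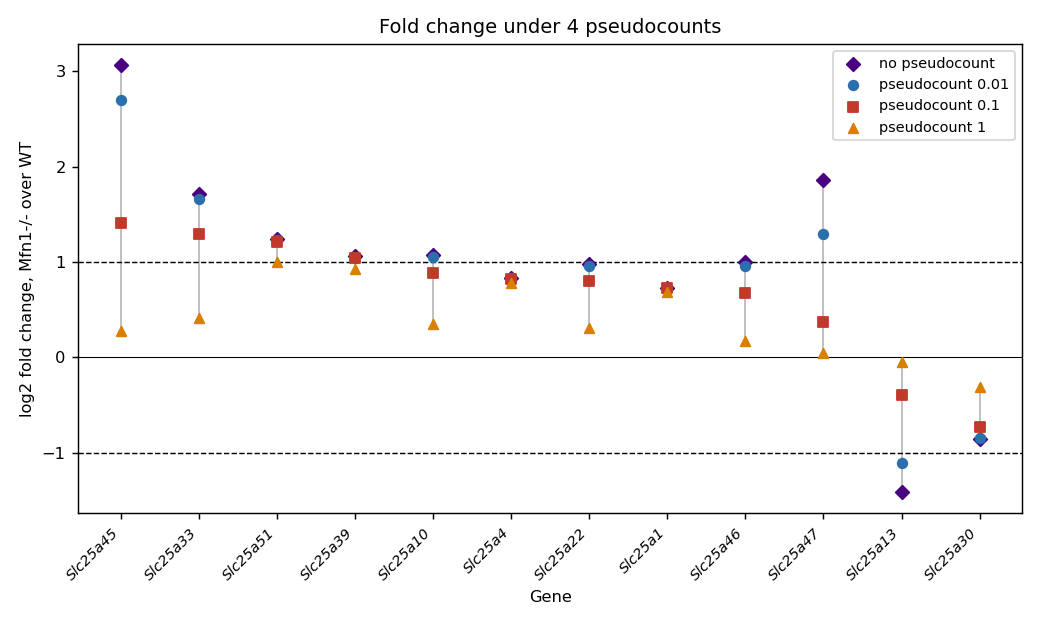
Log2 fold change of Mfn1-/- over WT for 12 SLC25 genes, chosen after their values were seen, with no pseudocount and with pseudocounts of 0.01, 0.1 and 1; dashed lines mark a fold of 2. The points of Slc25a4, Slc25a1, Slc25a39 and Slc25a51 lie close together, while those of Slc25a45, Slc25a47 and Slc25a13, with means under 0.3, spread widely.

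Related carriers were set side by side, 16 pairs with both genes in the table. In 9 pairs both genes had the same direction. The share over other pairs of genes was not computed, and the 56.7% of single genes that were higher is not such a share. Some genes stand in more than 1 pair, as Slc25a4, Slc25a5 and Slc25a31 do. Subtraction of the shift turned pairs both ways. Slc25a4 and Slc25a31 became opposite in direction, and Slc25a14 and Slc25a30 became alike. The log2 fold changes differed by more than 1 in 3 pairs. Slc25a33 and Slc25a36 both carry pyrimidine nucleotides, and Slc25a33 had the higher log2 fold change by 1.35. The ratio of their deposited means was 1.23 in WT and 4.33 in Mfn1-/- oocytes. Per kilobase of transcript the same ratio went from 0.689 to 2.43, so on that scale alone the order of this pair differed between the genotypes. As deposited, Slc25a33 had the higher mean in both. The lengths used were medians over annotated transcripts, 1887 bases for Slc25a33 and 1060 for Slc25a36. Of the relatives without a well-defined substrate, Slc25a45 lay above Slc25a48 by 1.47 and above Slc25a47 by 1.04. Slc25a39 exceeded its relative Slc25a40 in log2 fold change by 0.77, and the ratio of their deposited means was 19.6 in WT and 31.6 in Mfn1-/- oocytes. A stretch of 724 bases of Slc25a40 is 96.3% identical to the pseudogene Gm5066, which had 1.43 in WT and 0.957 in Mfn1-/- oocytes. How reads of that stretch were assigned is not known. The aspartate/glutamate carriers had opposite directions, and the ratio of Slc25a12 to Slc25a13 in deposited means was 0.848 in WT and 3.20 in Mfn1-/- oocytes, at means under 0.1.

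**Figure D5:**
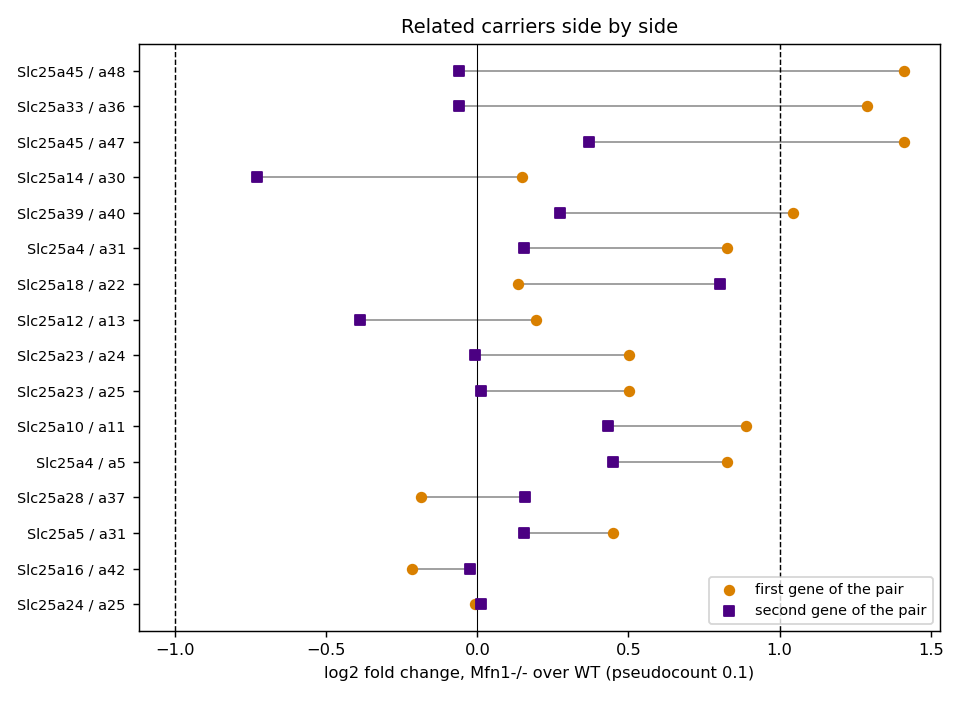
Log2 fold change of Mfn1-/- over WT (pseudocount 0.1) of the first gene (circle) and the second gene (square) of 16 pairs of related SLC25 carriers, ordered by their difference; dashed lines mark a fold of 2. Slc25a45 and Slc25a33 lie past a fold of 2 while Slc25a48 and Slc25a36 lie at -0.062 and -0.061.

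Genes that work beside the carriers were taken from lists, whose counts stand against 56.7% of all genes higher and 4.87% past a fold of 2 and higher. The machinery that inserts carriers into the inner membrane and the outer membrane channels (TIM22 complex and VDACs) were higher in 9 of 10 cases and above the shift in 7, with 0 past a fold of 2. Timm10b was the most abundant, with 38.8 in Mfn1-/- and 32.2 in WT oocytes, and Vdac2, the exception, had 6.74 and 10.8. Of the family members that go by other names, Ucp2 had 0.0568 and 0.119, Mtch1 0.853 and 0.909 and Mtch2 0.537 and 0.417. Other inner membrane transporters were higher in 7 of 11 cases, lower in 3 and above the shift in 4, with 0 past a fold of 2, and the pyruvate carrier subunit Mpc1 had 3.64 in both genotypes.

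In the NAD pathway, whose product Slc25a51 carries, 7 of 10 genes were higher and 5 lay above the shift, and Naprt, which makes the nicotinic acid mononucleotide used for NAD, was past a fold of 2 with 2.23 in Mfn1-/- and 1.06 in WT oocytes (1.01). Naprt was at 0.85, under a fold of 2, relative to the shift. Nampt, the salvage enzyme, had 0.216 and 0.349. All 8 glutathione pathway genes were higher, 7 of them above the shift and 0 past a fold of 2, the most abundant being the peroxidase Gpx1 with 89.5 and 46.6 (0.94). Among the 8, Gclc, Gss, Gsr and Glrx2 had low means over the libraries, from 0.088 to 0.116. Of 12 iron, heme and iron-sulfur genes 10 were higher, 9 of them above the shift, and 1 lower, and the heme oxygenase Hmox1 was past a fold of 2 with 1.13 and 0.0749 (2.81). Glrx5, the most abundant of these and also 1 of the 8 glutathione pathway genes, had 50.2 and 43.4. Of the 7 pyrimidine nucleotide genes 6 were higher and 5 above the shift, with Umps the most abundant at 5.36 and 4.40, and all 4 carnitine shuttle genes in the table were higher and 3 above the shift, with Cpt2 at 3.45 and 2.99. In both of these lists 0 genes were past a fold of 2.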

How the data were processed

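RNA was sequenced from 4 WT and 3 Mfn1-/- libraries of 5 oocytes each, grouped by their labels. The authors trimmed reads with Cutadapt, aligned them to GRCm38/mm10 with STAR and counted them on genes; annotation version, normalization and strand setting are not given in the sources used here. The deposited signal gives, for each gene, the normalized counts averaged within each genotype and a total, with a lowest value of 0.01. In 100% of genes the total could be rebuilt within 1% by weighting the Mfn1-/- average by 3 and the WT average by 4. Columns of the authors' own comparison (p-value, FDR, ratio, fold change) were not used, and 0 columns of per-sample values were left unused. The depth of each library is unknown.

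The planned test needs library values and could not be fitted. The log2 fold change was log2 of (mean + 0.1) in Mfn1-/- over (mean + 0.1) in WT, with a threshold of a fold of 2. The calculation was run on simulated means without noise, where its outcome was fixed in advance. That run checks the code and says nothing about the spread between libraries or about low means. Members with a mean of at least 1 or past a fold of 2 were named with their values, except 1 that is counted among the members but not reported here; others were named to complete a group, a pair or a figure, after their values were seen. From the other lists, genes past a fold of 2 and the most abundant gene were named, and others after their values were seen. Members, lists, pairs and motifs were chosen with earlier results of these data known. Gene models came from GENCODE M21, in which 21895 of 22876 different names were found once. Levels per kilobase used the median length over all annotated transcripts of a gene. This can be shorter than the coding sequence, as for Slc25a13 with 631 against 2028 bases. Near-identical stretches (75 bases, 95% identity) were found with blastn 2.17.0. Python 3.11.15, numpy 2.4.6, pandas 2.3.3 and matplotlib 3.10.9 were used. Alternatives were pseudocounts of 0.01, 1 and none, minimum means of 0.1 and 1, a fold of 1.5 and subtraction of the median shift. Subtraction of medians in 20 bins of transcript GC content was chosen after seeing the data. So was omission of members that share bases with other genes.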

Additional observations from a re-analysis of the deposited data

How the results depend on the processing

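The number of members past the fold threshold and higher was 4 with the settings of the report. It was 0 with a pseudocount of 1, 2 among members with a mean of at least 1, 2 without the 23 members that share bases with other genes and 9 at a fold of 1.5. It was 6 with a pseudocount of 0.01 or none, where Slc25a10 and Slc25a47 were added, and 3 with either subtraction, where Slc25a39 was lost. The number of lower members was 0 in the report and 1 with a pseudocount of 0.01, with none (Slc25a13 in both) and at a fold of 1.5 (Slc25a30). The median log2 fold change of the members was 0.15. It was 0.26 with a pseudocount of 0.01, 0.068 with 1, 0.37 with none, 0.43 and 0.44 at minimum means of 0.1 and 1, 0.047 after the GC subtraction, and -0.0057 after subtraction of the shift of genes with a mean of 1 or more, where its direction turned. That subtraction moves every member by the same 0.16, including the 11 with means under 0.1, whose differences the pseudocount holds near 0.

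No paired analysis was possible because the columns are genotype means and carry no replicate numbers. The planned limma fit and the omission of each replicate were not run for want of library values. The spread between libraries and their depth are unknown and limit every fold above.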

Other observations

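Slc25a29, a carrier of basic amino acids (chromosome 12, 108825873 to 108835883, GRCm38, GENCODE M21), and Slc25a47 (108836046 to 108856815) are neighbours on opposite strands. Slc25a29 had 0.184 normalized counts in Mfn1-/- against 0.175 in WT oocytes, while Slc25a47 had 0.0451 and 0.0124. The X chromosome holds 3 members of the table, Slc25a5 with 115 and 84.3, Slc25a14 with 1.07 and 0.955 and Slc25a53 with 0.0286 and 0.0260, all 3 with the higher mean in Mfn1-/- oocytes. Relative to the shift of the table Slc25a5 stayed above 0, while Slc25a14 was at -0.0099 and Slc25a53 at -0.13.

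Nnt, the proton-pumping transhydrogenase of the inner membrane, lay at 0.0108 and 0.0111, next to the lowest value of the table. Strain C57BL/6J is known to carry a deletion in this gene. Whether these mice carry it, and its part in these values, was not tested.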
